A study of Mus musculus with 3 samples.

Results

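Matrix proteases and cell-surface peptidases were followed across the cells of mouse mitral valves by 9 genes chosen by name: Ctsk and Ctss (cathepsins), Mmp9 and Mmp24 (matrix metalloproteinases), Fap and Dpp4 (prolyl peptidases), Mme (neprilysin), and Adam33 and Adam15 (membrane metalloproteinases). All 9 are among the 3264 genes that have no empty value in the matrix, and 8 of them had a UMI (unique molecular identifier, the tag of 1 captured transcript) in at least 1 cell. The 3 samples listed with the matrix are mitral valves of mgR mice (B6.129-Fbn1tm2Rmz/J), which carry a hypomorphic allele of Fbn1, the gene of fibrillin-1, on both chromosomes; the study states an age of 12 weeks. The deposited matrix pools 16383 barcodes whose source mouse cannot be read from it, so wild-type or rapamycin-treated mice may have contributed, and whether a barcode is a cell or a nucleus is not known. As a single pool it gives no contrast of genotypes and no measure of how mice vary. A barcode, called a cell here, had a median of 5349 UMIs (503 to 23127).

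Proteases shape the connective tissue of a heart valve by cutting collagen, elastin and the growth factors and receptors held at the cell surface. Cathepsins K and S are cysteine proteases that mature in lysosomes and can be secreted. Matrix metalloproteinases and the ADAM proteins with catalytic activity use a zinc ion, and the prolyl peptidases are serine enzymes of the plasma membrane that cut after proline. Endothelial cells line the valve leaflets, fibroblast-like interstitial cells fill them, and resident macrophages lie between.

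Cells were sorted into groups by their own UMIs. Fibroblasts had UMIs of at least 2 of the 3 genes Prrx1, Col3a1 and Dpt and none of Egfl7 (3149 cells, median 6063 UMIs). Endothelial cells had a UMI of Egfl7 and UMIs of fewer than 2 of those genes (8966 cells, median 5366 UMIs), and Ptprc cells had a UMI of Ptprc, the leukocyte antigen CD45, and were in neither group (487 cells, median 4902 UMIs). Another 404 cells had fibroblast genes together with Egfl7, with a median of 8702 UMIs, and 3377 cells met no rule. The groups were checked against marker lists from which the sorting genes Prrx1, Col3a1, Dpt, Egfl7 and Ptprc were left out. The other 6 fibroblast markers were each above their level over all cells in fibroblasts, at a summed 21.6 UMIs per 10000 UMIs of the group, against 5.74 in endothelial cells and 2.63 in Ptprc cells. The other 10 leukocyte markers were each above it in Ptprc cells, summing to 31.5 against 0.889 in fibroblasts and 0.547 in endothelial cells. In endothelial cells 4 of the other 5 endothelial markers were above it, and the exception, Mecom, was higher in fibroblasts, at 32.0 against 6.18. Levels below are summed UMIs per 10000 UMIs of the group. Their 95% intervals are exact Poisson, those of shares are exact binomial, and either kind covers counting error only.

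The members divided between the groups. Of the 8 members with a UMI, 2 were highest in fibroblasts (Fap and Mme), 3 in endothelial cells (Ctsk, Adam15 and, by a margin within counting error, Mmp24) and 3 in Ptprc cells (Ctss, Dpp4 and Adam33). Of 33 other protease and inhibitor genes, 11, 7 and 15 were highest in these groups. The share of all genes highest in each group was not computed. At least 2-fold over both other groups were 2 of 8 members in fibroblasts (Fap and Mme), where 12.1% of all genes with at least 20 UMIs passed, 2 of 8 in endothelial cells (Ctsk and Adam15), where 6.89% passed, and 3 of 8 in Ptprc cells (Ctss, Dpp4 and Adam33), where 14% passed. The call on Adam15, at 2.02-fold, fell below 2-fold in either barcode run alone (1.91 and 1.98), with means over cells (1.91) and with every cell with a UMI of Ptprc taken as a Ptprc cell (1.95). Over the 8 members the median log2 ratio of fibroblasts to endothelial cells was -0.04, against 0.07 over 2818 genes. The median log2 ratio of endothelial to Ptprc cells was -2.03 for the 8 members and -0.04 over 2632 genes. The members were chosen by name with earlier results known, so these counts describe the list.

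**Figure D1:**
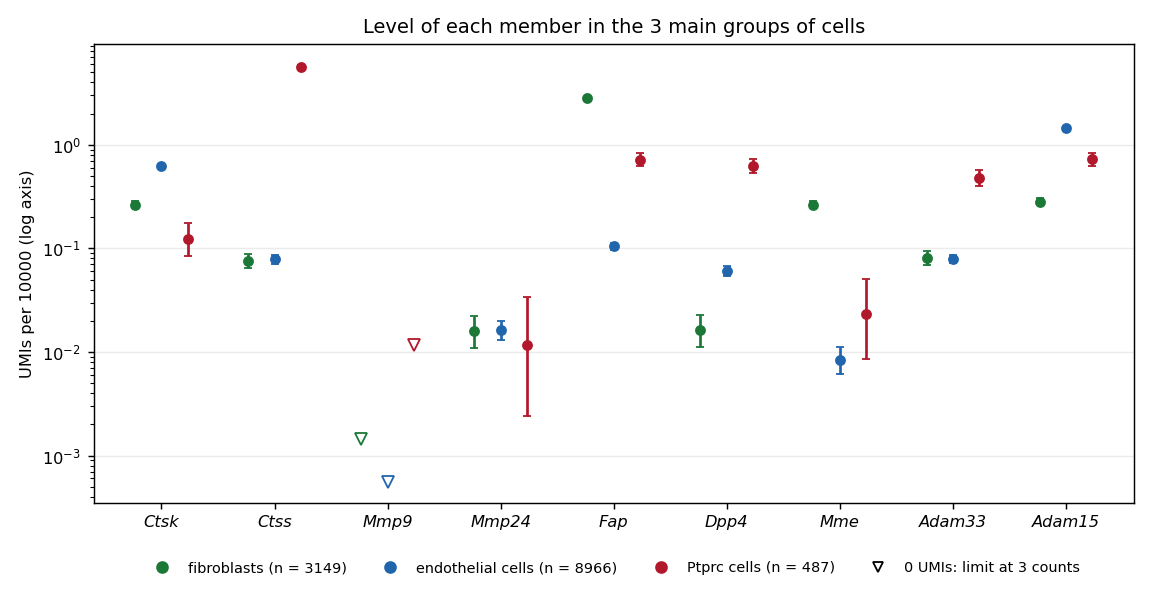
Level of each member (UMIs per 10000, log axis) in fibroblasts, endothelial cells and Ptprc cells, with 95% exact Poisson intervals; open triangles mark the limit of 3 counts where no UMI was found. Ctss stands out in Ptprc cells at 5.63, Fap in fibroblasts at 2.83 and Adam15 in endothelial cells at 1.46, while the 3 intervals of Mmp24 overlap.

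Cathepsin genes Ctsk and Ctss are neighbours on chromosome 3, at chr3:95499256-95509362 and chr3:95526786-95556403 on the plus strand of GRCm38, 17423 bases apart, yet they peaked in different groups. The bases before the start of each, from RefSeq (GRCm38.p6), are shown because these adjacent genes differ in where they are highest, and those of Dpp4 because it shares with Ctss its highest level in Ptprc cells. The windows are chr3:95498960-95499209 (Ctsk, plus strand), chr3:95526536-95526785 (Ctss, plus strand) and chr2:62412232-62412481 (Dpp4, minus strand), each of 250 bases, written 5′ to 3′. The RefSeq start of Ctsk lies upstream of its GENCODE start, which opens the gene's span given above, while the windows of Ctss and Dpp4 end next to their GENCODE starts.
Ctsk: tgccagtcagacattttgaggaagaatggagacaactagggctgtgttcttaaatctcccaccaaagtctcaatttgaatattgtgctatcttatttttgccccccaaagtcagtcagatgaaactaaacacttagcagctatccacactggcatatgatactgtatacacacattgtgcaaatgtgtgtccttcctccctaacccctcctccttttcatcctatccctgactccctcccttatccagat
Ctss: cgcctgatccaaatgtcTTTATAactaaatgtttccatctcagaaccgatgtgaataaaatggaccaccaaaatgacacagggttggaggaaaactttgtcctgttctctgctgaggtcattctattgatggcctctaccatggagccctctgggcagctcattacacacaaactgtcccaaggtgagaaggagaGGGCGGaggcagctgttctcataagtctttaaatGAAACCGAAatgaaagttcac
Dpp4: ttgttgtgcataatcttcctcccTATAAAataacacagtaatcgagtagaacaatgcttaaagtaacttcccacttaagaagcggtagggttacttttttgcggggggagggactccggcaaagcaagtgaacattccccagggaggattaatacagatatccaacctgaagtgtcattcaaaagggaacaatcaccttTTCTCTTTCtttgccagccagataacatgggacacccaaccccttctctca
Capitals mark matches on either strand to the 5 motifs searched, and no match here overlaps another. Of 32851 RefSeq promoter windows of this length, GAGGAAGT is in 2.44%, GAAANNGAA in 7.13%, TGANTCA in 6.75%, TATAAA in 12.4% and GGGCGG in 32.7%. The window of Ctss holds GAAANNGAA 13 to 21 bases before the start, and that of Dpp4 holds its reverse complement 43 to 51 bases before it. Both windows also hold TATAAA, at 228 to 233 bases before the start for Ctss on the reverse strand and 222 to 227 for Dpp4. That of Ctss holds GGGCGG 50 to 55 bases before the start, and the window of Ctsk held none of the 5. These matches are a description of the letters. RefSeq windows were found for 6 of the 9 members.

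Ctsk encodes cathepsin K, best known as the collagenase of osteoclasts. It was highest in endothelial cells at 0.630 (0.609 to 0.652), against 0.265 (0.243 to 0.287) in fibroblasts and 0.124 (0.0848 to 0.175) in Ptprc cells, and no 2 of these intervals overlap. The endothelial level was 2.38-fold (2.18 to 2.61) that of fibroblasts, and 4.13-fold in the second barcode run. After each cell was thinned to 2000 UMIs, Ctsk was found in 10.7% (10.0 to 11.4) of endothelial cells, 4.55% (3.84 to 5.35) of fibroblasts and 3.23% (1.78 to 5.37) of Ptprc cells; without thinning the shares were 23.1%, 13.2% and 5.54%. Thinning left out 563 endothelial cells, 92 fibroblasts and 54 Ptprc cells with fewer UMIs. Where Ctsk was found, a cell carried 1.55 of its UMIs on average and at most 14, so the gene was spread thinly over 2977 cells.

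Ctss, which encodes the elastin-cutting cathepsin S of antigen-presenting cells, was close to a leukocyte gene in this matrix. Its level was 5.63 (5.34 to 5.92) in Ptprc cells, 0.0785 (0.0712 to 0.0863) in endothelial cells and 0.0761 (0.0647 to 0.0888) in fibroblasts, a ratio of 71.7 (64.3 to 80.1) over endothelial cells. Over the alternatives this ratio ran from 40.9 in the second barcode run to 294 with clusters, with 264 where every cell with a UMI of Ptprc was a Ptprc cell. In the settings that gave 264 and 294, fibroblasts had more Ctss than endothelial cells, so the ratio over fibroblasts is smaller. The same held in the first barcode run, at 0.0725 against 0.0539, where the ratio over fibroblasts was 67.3 (56.1 to 81.2). Ctss was found in 51.3% (46.4 to 56.1) of thinned Ptprc cells, 0.821% (0.639 to 1.04) of endothelial cells and 1.08% (0.744 to 1.51) of fibroblasts, and in 69.0%, 1.77% and 2.48% without thinning. Most of what was left outside Ptprc cells lay in endothelial cells and fibroblasts that also had a UMI of Ptprc. In the 163 endothelial cells with a UMI of Ptprc, Ctss was at 2.71 (2.43 to 3.01) and held 337 of the group's 422 UMIs, while in the 8803 without it the level was 0.0162 from 85 UMIs. In fibroblasts the values were 1.72 (1.40 to 2.08) in 74 cells with Ptprc and 0.0271 (0.0204 to 0.0353) in 3075 without. The part of captured pairs of cells and of free RNA in these values was not tested.

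The matrix metalloproteinases gave little signal. Mmp9, the gelatinase that neutrophils store in granules, had 0 UMIs in 16383 cells, with exact intervals that reach 0.000381 UMIs per 10000 and 0.0225% of cells. The neutrophil genes were near 0 as well, with S100a8 at 0 UMIs, S100a9 at 1 and Cxcr2 at 6 over all cells, and none of the 3 in Ptprc cells. Mmp9 was therefore not detectable at this depth, which does not show that it was absent from the valves. Mmp24, a membrane-anchored metalloproteinase known mainly from the nervous system, had 148 UMIs in 128 cells. Its level was 0.0162 (0.0130 to 0.0199) in endothelial cells, 0.0158 (0.0109 to 0.0222) in fibroblasts and 0.0116 (0.00240 to 0.0340) in Ptprc cells, and the 3 groups did not differ beyond counting error. The gene overlaps BC029722 on the other strand, and whether the counting used strand is not given in the sources used here.

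Of the prolyl peptidases, Fap was the fibroblast member. Fibroblast activation protein, its product, cuts denatured collagen and is known from remodelling stroma. The gene was at 2.83 (2.76 to 2.90) in fibroblasts, 0.721 (0.621 to 0.832) in Ptprc cells and 0.104 (0.0960 to 0.114) in endothelial cells. Outside these 3 groups it was at 1.75 (611 UMIs) in the 404 cells with fibroblast genes and Egfl7. In the 3377 cells that met no rule it was at 0.878 (0.833 to 0.925). The fibroblast level was 3.93-fold (3.39 to 4.57) that of Ptprc cells and 27.1-fold (24.8 to 29.6) that of endothelial cells. Thinned shares followed the same order, at 31.6% (29.9 to 33.2), 10.4% (7.68 to 13.7) and 1.70% (143 of 8403 cells), and were 48.3%, 18.7% and 3.73% without thinning. The ratio of Ptprc cells to fibroblasts was 0.255 (0.219 to 0.295) for Fap. Of the other genes compared, 7 of 10 lay lower, from Prrx1 at 0.0827 to Fbn1 at 0.108. Above it were Prelp at 0.335 (0.279 to 0.399), and Fmod and Sfrp2, which rest on 23 and 8 UMIs in Ptprc cells and have intervals that include the value of Fap. Sorting bears on these ratios, since a cell with UMIs of at least 2 of Prrx1, Col3a1 and Dpt and none of Egfl7 is counted as a fibroblast even where it has Ptprc. The 91 Ptprc cells with a UMI of Fap had a median of 5784 UMIs, against 4750 in the 396 without, and more of 3 of 4 fibroblast genes. Col3a1 was at 1.30 (1.02 to 1.64) against 0.398 (0.315 to 0.495), Dpt at 0.634 (0.444 to 0.877) against 0.134 (0.0884 to 0.195) and Col6a3 at 0.986 (0.744 to 1.28) against 0.303 (0.232 to 0.389). Prrx1 did not differ beyond counting error, at 0.299 (0.174 to 0.479) and 0.288 (0.219 to 0.373). Their Ptprc level was 13.5 (12.6 to 14.5) against 15.6 (15.1 to 16.2), and Ctss was at 5.19 (4.62 to 5.82) against 5.75 (5.42 to 6.09). The Ptprc cells with Fap thus carried leukocyte genes together with more of Col3a1, Dpt and Col6a3, and the part of captured pairs of cells in this was not tested.

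Dpp4 lies on the same strand of chromosome 2 as Fap, at chr2:62330073-62412231 against chr2:62500943-62574075, with Gcg between them, and encodes CD26, a peptidase that trims incretins and chemokines and also marks T cells. Its level was 0.632 (0.538 to 0.736) in Ptprc cells, 0.0602 (0.0539 to 0.0672) in endothelial cells and 0.0163 (0.0113 to 0.0227) in fibroblasts, a ratio of 10.5 (8.63 to 12.7) over endothelial cells. The pair of related neighbours therefore ran in opposite order over fibroblasts and Ptprc cells. Few cells carried Dpp4. It was found in 5.77% (3.77 to 8.41) of thinned Ptprc cells, 0.774% (0.597 to 0.985) of endothelial cells and 0.229% (0.0921 to 0.471) of fibroblasts, and in 8.01%, 1.78% and 0.603% without thinning. The gene overlaps Gm13561 on the other strand.

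Splitting the Ptprc cells by Mrc1, the mannose receptor of resident macrophages, separated Dpp4 from Adam33. Ptprc cells without a UMI of Mrc1 (175 cells, median 4206 UMIs) had Dpp4 at 1.86 (1.57 to 2.18), against 0.0788 (0.0431 to 0.132) in the 312 with it (median 5212 UMIs), a ratio of 23.6 (13.6 to 44.1), or 11.8 with every cell with a UMI of Ptprc taken as a Ptprc cell. Thinned shares with a UMI of Dpp4 were 15.7% (10.1 to 22.8) and 1.02% (0.212 to 2.96). Adam33 ran the other way, at 0.681 (0.565 to 0.813) with Mrc1 and 0.0249 (0.00302 to 0.0900) without it, a ratio of 27.3 (7.40 to 228) that rests on 2 UMIs in the lower group and was 10.7 with groups by clusters. At least 2-fold higher with Mrc1 was 1 of 6 members (Adam33), where 7.03% of genes passed, and at least 2-fold higher without it were 2 of 6 (Dpp4 and Ctsk), where 14% passed. Ctsk rests on 32 UMIs there, at 0.237 (0.143 to 0.369) without Mrc1 and 0.0731 (0.0389 to 0.125) with it, and this call ended in several alternatives. Its ratio was 1.84 (0.685 to 4.76) in the first barcode run, 1.66 with stricter gates, 1.96 with every cell with a UMI of Ptprc and 0.914 with clusters, while 17.6 in the second run rests on 1 UMI in the lower group. By level Ctss did not differ beyond counting error, at 5.77 (1025 UMIs) with Mrc1 and 5.32 (427 UMIs) without, a ratio of 1.08 (0.968 to 1.22), but this ratio was not stable, at 1.33 (1.14 to 1.57) in the first barcode run, 0.899 (0.758 to 1.07) in the second, 1.36 with every cell with a UMI of Ptprc and 0.732 with clusters. By thinned share it did, at 56.7% (50.8 to 62.4) with Mrc1 and 40% (31.8 to 48.6) without, so its UMIs lay in fewer cells where Mrc1 was not found. Fap did not differ beyond counting error, at 0.743 (0.621 to 0.881) and 0.673 (0.505 to 0.877), but its ratio with Mrc1 over without was 0.853 (0.584 to 1.26) in the first barcode run and 2.08 (1.08 to 4.33) in the second. Without Ptprc and Mrc1, the other 9 leukocyte markers summed to 19.5 in the cells with Mrc1 and 12.5 in those without, and no cell type was assigned to the latter. Markers of other cells were higher without Mrc1, with the fibroblast list at 5.41 against 3.03, the endothelial list at 5.87 against 3.34 and the cardiomyocyte list at 0.548 against 0.197, and their part in the values of Ctsk was not tested.

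**Figure D2:**
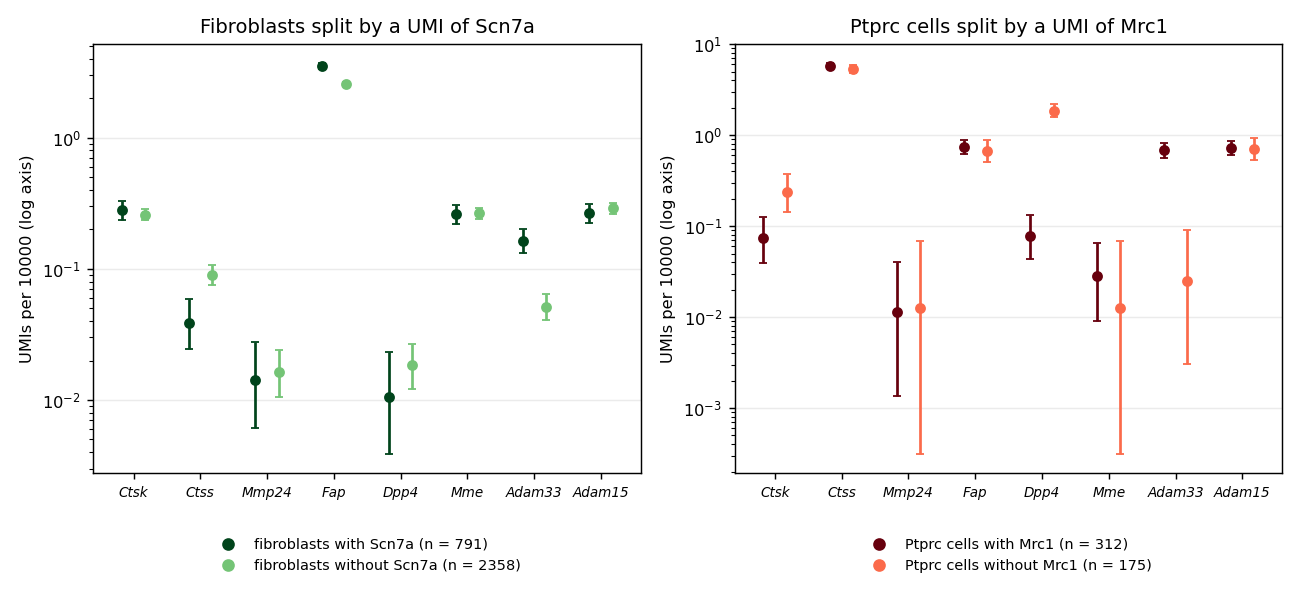
Levels (UMIs per 10000, log axis, 95% exact Poisson intervals) of the 8 members with a UMI in fibroblasts with and without Scn7a, and in Ptprc cells with and without Mrc1. Adam33 differs in both panels, while Dpp4 is at 1.86 without Mrc1 and 0.0788 with it.

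Mme encodes neprilysin, a zinc peptidase of the cell surface that degrades natriuretic peptides and enkephalins. It was a second fibroblast member, at 0.265 (0.243 to 0.287) in fibroblasts, 0.0233 (0.00853 to 0.0506) in Ptprc cells and 0.00837 (0.00610 to 0.0112) in endothelial cells. The ratio of fibroblasts to endothelial cells was 31.6 (23.3 to 43.9). That of fibroblasts to Ptprc cells was 11.4 (5.19 to 31.1), from 6 UMIs in Ptprc cells. In thinned cells Mme was found in 4.12% (3.45 to 4.89) of fibroblasts, 0.143% (0.0738 to 0.249) of endothelial cells and 0.462% (0.0560 to 1.66) of Ptprc cells, and in 9.02%, 0.268% and 0.616% without thinning. Within thinned fibroblasts, Mme was found in 5.60% (4.23 to 7.24) of 965 cells with a UMI of Fap and 3.44% (2.70 to 4.32) of 2092 without, and these intervals overlap; this pair was examined after its levels had been seen.

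The ADAM genes differed from each other. Adam15, which encodes a membrane disintegrin and metalloproteinase, was highest in endothelial cells at 1.46 (1.43 to 1.49), against 0.725 (0.624 to 0.836) in Ptprc cells and 0.283 (0.260 to 0.306) in fibroblasts. The endothelial level was 2.02-fold (1.74 to 2.34) that of Ptprc cells and 5.17-fold (4.75 to 5.63) that of fibroblasts. Outside these 3 groups, the 3377 cells that met no rule had Adam15 at 1.27 (1.22 to 1.33), close to endothelial cells. Adam15 was found in 22.4% (21.5 to 23.3) of thinned endothelial cells, 10.4% (7.68 to 13.7) of Ptprc cells and 5.14% (4.38 to 5.98) of fibroblasts, and in 43.8%, 25.1% and 15.6% without thinning. With 10901 UMIs in 5734 cells, it was found in more cells than any other member. It overlaps 4731419I09Rik on the other strand.

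Adam33, named in human genetics for its link to asthma, was low in each large group and uneven within them. Its level was 0.477 (0.396 to 0.569) in Ptprc cells, 0.0813 (0.0695 to 0.0945) in fibroblasts and 0.0792 (0.0719 to 0.0871) in endothelial cells, and the last 2 did not differ beyond counting error. Thinned shares were 7.62% (5.30 to 10.5), 1.47% (1.08 to 1.97) and 1.44% (1.20 to 1.72), and 15.2%, 3.24% and 2.98% without thinning. In fibroblasts Adam33 was higher in cells with Scn7a and in endothelial cells in those with Selp or Fmo2, as given below.

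Siglec1, a macrophage gene, lies 5405 bases upstream of Adam33 on the same strand, and was set beside it after the values of Adam33 had been seen. In Ptprc cells with a UMI of Siglec1 (83 cells) Adam33 was at 1.06 (0.807 to 1.37), against 0.319 (0.247 to 0.407) in the 404 without. Of these 83 cells 78 also had Mrc1, and within Ptprc cells with Mrc1 Adam33 was at 1.11 (0.842 to 1.44) with Siglec1 and 0.506 (0.390 to 0.646) without. In the Selp/Fmo2 endothelial cells described below, Siglec1 was at 0.00423 (0.000873 to 0.0124) from 3 UMIs, while Adam33 was at 0.282 (0.244 to 0.324). Adam33 UMIs there thus came almost without UMIs of its neighbour. Whether reads of Siglec1 add to Adam33 in Ptprc cells was not tested.

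Fibroblasts were split by Scn7a, a sodium channel gene, into 791 cells with a UMI (median 6527 UMIs) and 2358 without (median 5900 UMIs). Adam33 was at 0.163 (0.131 to 0.200) with Scn7a and 0.0511 (0.0404 to 0.0638) without, a ratio of 3.19 (2.33 to 4.36). The ratio was 2.58 (1.84 to 3.63) in the first barcode run. In the second it was 20.5 (5.06 to 179), which rests on 2 UMIs in the cells without Scn7a. Thinned shares of Adam33, 2.44% (1.48 to 3.79) and 1.14% (0.747 to 1.67), have intervals that overlap. Those without thinning, 6.70% (5.06 to 8.67) and 2.08% (1.54 to 2.74), do not. Schwann-cell markers moved with this split too, with the list of 2 genes, led by Cdh19, at 1.31 with Scn7a and 0.680 without, and their part in the level of Adam33 was not tested. Fap was at 3.52 (3.37 to 3.68) and 2.57 (2.49 to 2.65), a ratio of 1.37 (1.30 to 1.45), with thinned shares of 39.2% (35.8 to 42.7) and 29.0% (27.1 to 30.9). Ctss was lower with Scn7a, at 0.0389 (0.0244 to 0.0590) against 0.0898 (0.0754 to 0.106). Past 2-fold were 2 of 8 members: Adam33, higher with Scn7a, where 4.62% of genes passed, and Ctss, higher without it, where 6.62% passed. The call on Ctss ended once every cell with a UMI of Ptprc was taken out of the fibroblasts, when its ratio of cells without Scn7a to cells with it was 0.996, and 1 member, Adam33, was left. It also ended at 3-fold, with stricter gates, clusters or means over cells, without the 5% of cells with the most UMIs and in the second barcode run. Over both runs, Ctsk, Mme and Adam15 did not differ beyond counting error between these fibroblasts, with ratios of 1.08 (0.893 to 1.30) for Ctsk with Scn7a over without, and 1.02 (0.845 to 1.24) for Mme and 1.09 (0.903 to 1.32) for Adam15 without over with. In the second run alone Mme was 2.50-fold (1.19 to 5.85) higher without Scn7a, from 49 UMIs.

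Endothelial cells were split by 3 pairs of genes, keeping cells with UMIs of only 1 pair. Cells with Prox1 or Kif26b numbered 2715 (median 5269 UMIs), those with Tmem163 or Kcnh1 726 (median 5659 UMIs), and those with Selp or Fmo2 1342 (median 4770 UMIs); 1578 had no pair and 2605 had several. At least 2-fold between the highest and lowest subset were 6 of 8 members, where 26.1% of genes passed. The members that passed were Ctsk, Ctss, Dpp4, Mme, Adam33 and Adam15, and they did not share an order. Mme fell under 20 UMIs or 2-fold in most alternatives, Ctss and Adam15 fell to 1.78-fold and 1.77-fold with subsets that may overlap, and Adam15 was 1.92-fold in the second barcode run.

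**Figure D3:**
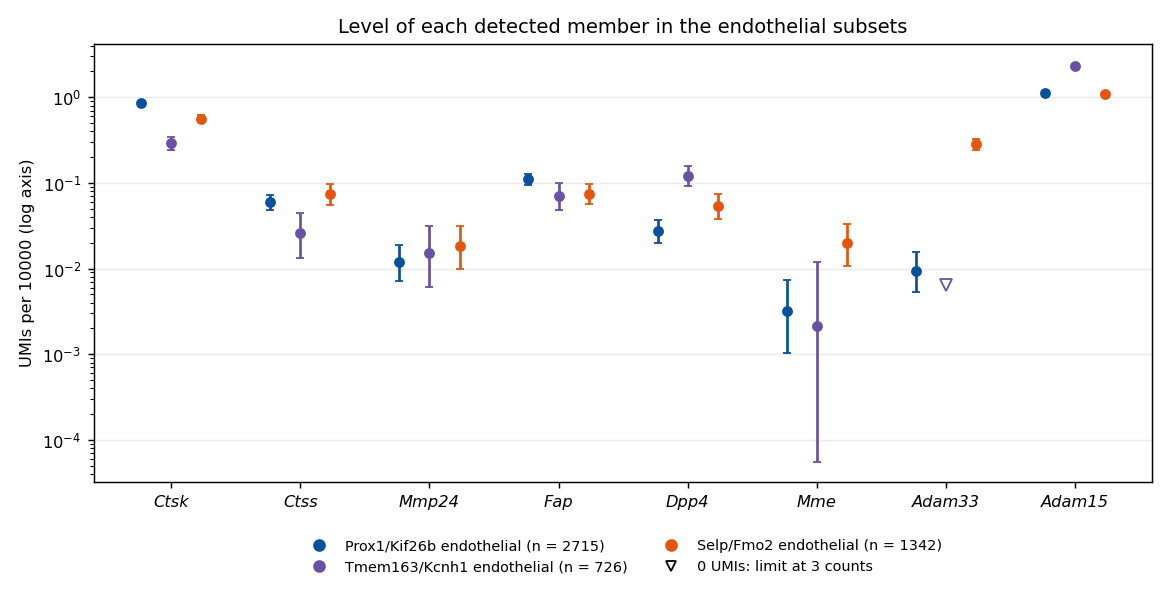
Levels (UMIs per 10000, log axis, 95% exact Poisson intervals) of the 8 members with a UMI in endothelial cells with UMIs of 1 gene pair only; the open triangle is the limit of 3 counts. Ctsk is highest with Prox1 or Kif26b, Adam15 with Tmem163 or Kcnh1, and Adam33 with Selp or Fmo2.

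Ctsk was highest in the Prox1/Kif26b subset, at 0.867 (0.822 to 0.914), then 0.564 (0.510 to 0.622) with Selp or Fmo2 and 0.290 (0.243 to 0.344) with Tmem163 or Kcnh1, and all 3 intervals lay apart. Thinned shares were 14.8% (13.4 to 16.2), 9.66% (8.08 to 11.4) and 5.15% (3.63 to 7.06). Adam15 had another order, at 2.31 (2.17 to 2.45) in the Tmem163/Kcnh1 subset, 1.12 (1.06 to 1.17) with Prox1 or Kif26b and 1.08 (765 UMIs) with Selp or Fmo2. Over both runs the last 2 did not differ beyond counting error. In the second barcode run alone, the ratio of Prox1/Kif26b to Selp/Fmo2 cells for Adam15 was 1.26 (1.007 to 1.589). A high level of Adam15 was not particular to the Tmem163/Kcnh1 subset, since endothelial cells without a pair had it at 2.10 (1694 UMIs) and those with several at 1.41 (1.35 to 1.46). For Ctsk and Adam15, a pair examined after its levels had been seen, Adam15 in thinned endothelial cells was found in 16.1% (13.8 to 18.7) of 898 cells with a UMI of Ctsk and 23.2% (22.2 to 24.2) of 7505 without.

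Of the 3 subsets, Adam33 was highest with Selp or Fmo2, at 0.282 (0.244 to 0.324), against 0.00948 (0.00530 to 0.0156) with Prox1 or Kif26b, a ratio of 29.8 (17.6 to 54.2). No UMI was found in the 726 cells with Tmem163 or Kcnh1, so the Selp/Fmo2 level was 43.7-fold the limit of 3 counts over that group, and the exact interval of the ratio starts at 35.2, or at 1.95 in the second barcode run. The Selp/Fmo2 subset held 200 of the 426 endothelial UMIs of Adam33, cells with several pairs held 178, at 0.0981 (0.0842 to 0.114), and cells without a pair 33, at 0.0409 (0.0281 to 0.0574). Thinned shares of Adam33 were 5.72% (4.49 to 7.16) with Selp or Fmo2 and 0.236% (0.0867 to 0.513) with Prox1 or Kif26b. Selp encodes the adhesion molecule P-selectin, which is stored in endothelial cells and binds leukocytes. The leukocyte list of 11 genes was also highest in this subset, summing to 0.728, against 0.586 with Prox1 or Kif26b and 0.434 with Tmem163 or Kcnh1. The fibroblast list was highest there too, at 8.09 against 4.70 and 6.74, and so was the endothelial list, at 35.6 against 26.0 and 14.1. Over all endothelial cells Adam33 was at 0.346 (43 UMIs) in the 163 with a UMI of Ptprc and 0.0729 (0.0658 to 0.0806) in the 8803 without, which held 383 of its 426 UMIs. The part of RNA of other cells in the Selp/Fmo2 level was not tested.

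Dpp4 was highest in the Tmem163/Kcnh1 subset, at 0.120 (0.0910 to 0.156), against 0.0272 (0.0197 to 0.0366) with Prox1 or Kif26b. With subsets drawn by both genes of a pair its ratio fell to 0.705, the other direction, so no order is read from it. Mme rests on 14 UMIs with Selp or Fmo2, 5 with Prox1 or Kif26b and 1 with Tmem163 or Kcnh1, and Ctss ranged from 0.0258 (0.0133 to 0.0451) to 0.0733 (0.0548 to 0.0962) over the subsets. Endothelial cells without a pair had more Ctss, at 0.213 (0.182 to 0.247) with 172 of the 422 endothelial UMIs, and 0.986 (0.799 to 1.21) in the second barcode run. Fap was at 0.111 (0.0948 to 0.128) with Prox1 or Kif26b and 0.0710 (0.0489 to 0.0997) with Tmem163 or Kcnh1, and their ratio of 1.56 (1.07 to 2.33) became 8.12 with subsets by both genes of a pair and 0.411 (0.157 to 1.36) in the second barcode run, so no order is read from it. Cardiomyocyte genes were higher in the Tmem163/Kcnh1 subset, summing to 2.94 over 5 genes, led by Ttn, against 1.08 and 1.21 in the other subsets, and their part in the levels of Adam15 and Dpp4 was not tested.

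Clusters, formed without the members among the genes used, gave a finer view. Both fibroblast-like clusters held Fap, at 3.81 in cluster 2 and 2.28 in cluster 1, and Adam33 was at 0.221 in the former and 0.0374 in the latter. Of 6 clusters with Egfl7, cluster 7 had Adam33 at 0.337 and the other 5 were at most 0.0140. Ctsk was highest in cluster 8, at 0.917, and Adam15 in cluster 4, at 2.42. The Ptprc cluster had Ctss at 5.17, Dpp4 at 0.566 and Adam33 at 0.511, and the cluster of 239 cells with fibroblast genes and Egfl7 (median 10194 UMIs) had Fap at 1.64 and Adam15 at 0.812, between the values of the groups.

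**Figure D4:**
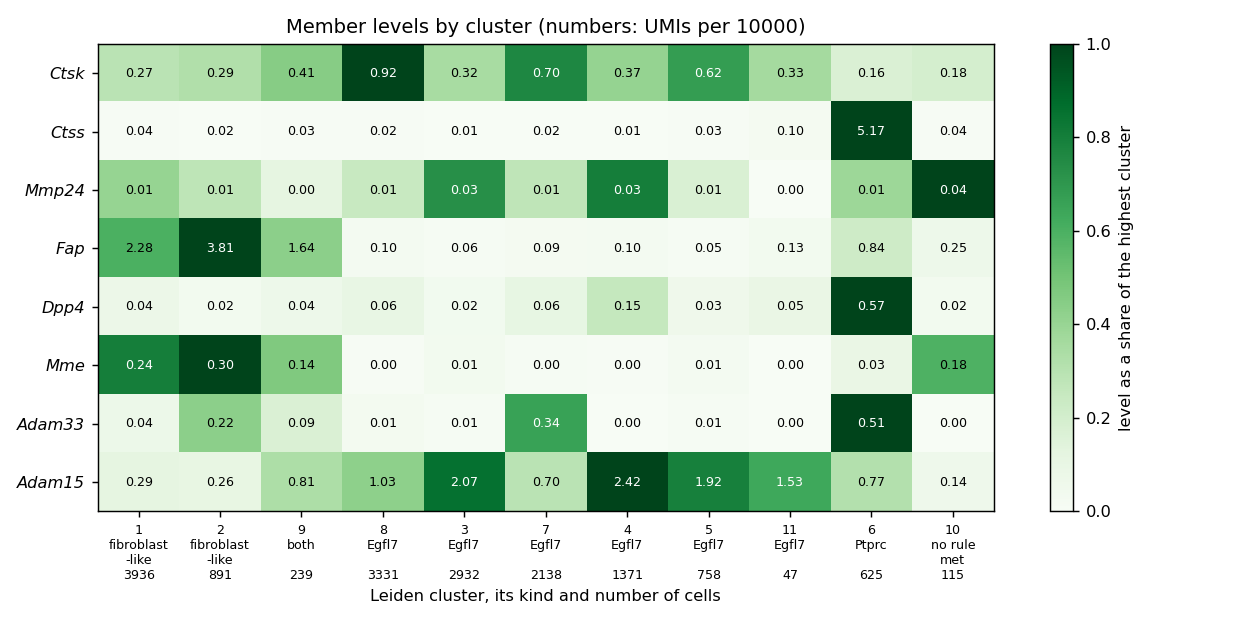
Level of each member with a UMI in the 11 Leiden clusters, ordered by kind, with cell numbers beneath; numbers are UMIs per 10000 and shading is the share of that member's highest cluster. Ctss and Dpp4 are highest in cluster 6, Fap and Mme in cluster 2, Ctsk in cluster 8 and Adam15 in cluster 4.

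Other genes followed the members closely over the 10 clusters of at least 50 cells. Pearson correlations of log2(level + 0.05), among 2281 genes of at least 200 UMIs, are a description over these clusters. The clusters come from 1 pool, are not replicates, and differ in depth, with median UMIs from 4177 to 10194. The pattern of Ctss was nearest to Fcer1g (0.997), Arhgap30 (0.996) and Igsf9 (0.996), and that of Dpp4 to Cd244a (0.965), Soat1 (0.963) and Fcgr2b (0.963). Nearest to Fap were Itga8 (0.986), Sec16b (0.982) and Lrrn2 (0.977), and nearest to Mme were Ankrd35 (0.985), Ecrg4 (0.981) and Dnah7b (0.976). Ctsk was nearest to Cavin2 (0.911), Gm37422 (0.895) and Tm4sf1 (0.885), Adam15 to Pigt (0.951), F730311O21Rik (0.943) and Shf (0.940), and Adam33 to Golph3l (0.922), Usp50 (0.900) and Sp140 (0.845).

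Other protease and inhibitor genes were counted for comparison. Of 39 listed genes, 33 are in the matrix. Among the 28 with at least 20 UMIs, 5 were at least 2-fold over both other groups in fibroblasts (12.1% of all genes), 3 in endothelial cells (6.89%) and 7 in Ptprc cells (14%). Among the last were other cathepsins: Ctsa, the protective protein cathepsin A, was at 0.887 in Ptprc cells and 0.237 in endothelial cells, and Ctse at 0.217 and 0.00260. Npepl1, an aminopeptidase, was at 0.353 in Ptprc cells against 0.281 in fibroblasts. Dpp10, a relative of Dpp4 without peptidase activity, was also highest in Ptprc cells, at 0.0814 from 77 UMIs over all cells. The ADAMTS-like genes, whose proteins lack the protease domain, were highest in different groups, Adamtsl2, which binds fibrillin-1, at 1.08 in fibroblasts and Adamtsl4 at 0.672 in endothelial cells. Adam23, an ADAM protein without catalytic activity, was highest in Ptprc cells at 0.384. The carboxypeptidase genes Cpxm1 and Cpa3 were highest in fibroblasts at 0.147 and in Ptprc cells at 0.00775, the latter with 13 UMIs in all. Of the calpains and caspases, Capn2 was highest in endothelial cells at 2.73, and Casp8 (2.01) and Capn3 (0.240) in Ptprc cells. The intramembrane proteases Sppl2a (1.91) and Ncstn (0.527) were highest in Ptprc cells, and the serine proteases Pcsk2 and F2 had 32 and 11 UMIs in all. Cst3, which encodes cystatin C, an inhibitor of cathepsins K and S, was at 2.10 in Ptprc cells, 1.46 in endothelial cells and 0.685 in fibroblasts, so the groups with the highest Ctss and Ctsk also had more of it than fibroblasts. Tfpi was highest in endothelial cells at 0.662 and Slpi in Ptprc cells at 0.0233.

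The barcodes stand in 2 alphabetical runs of 14222 and 2161 cells, which share 11 barcodes and have median UMIs of 5154 and 6918. Each member with a UMI other than Mmp24 had the same highest group in both runs. Several levels differed between runs beyond counting error. Adam15 in endothelial cells was at 1.58 (1.54 to 1.62) in the longer run and 0.973 (0.914 to 1.03) in the shorter, Ctss in Ptprc cells at 4.88 (4.56 to 5.21) and 7.38 (6.79 to 8.01), and Fap in fibroblasts at 2.90 (2.83 to 2.98) and 2.19 (1.99 to 2.39). Adam33 in Ptprc cells was at 0.576 (0.470 to 0.697) and 0.246 (0.148 to 0.384), which took its ratio over fibroblasts from 7.45 to 2.11. The runs are tied to no genotype, so no direction was drawn from them.

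**Figure D5:**
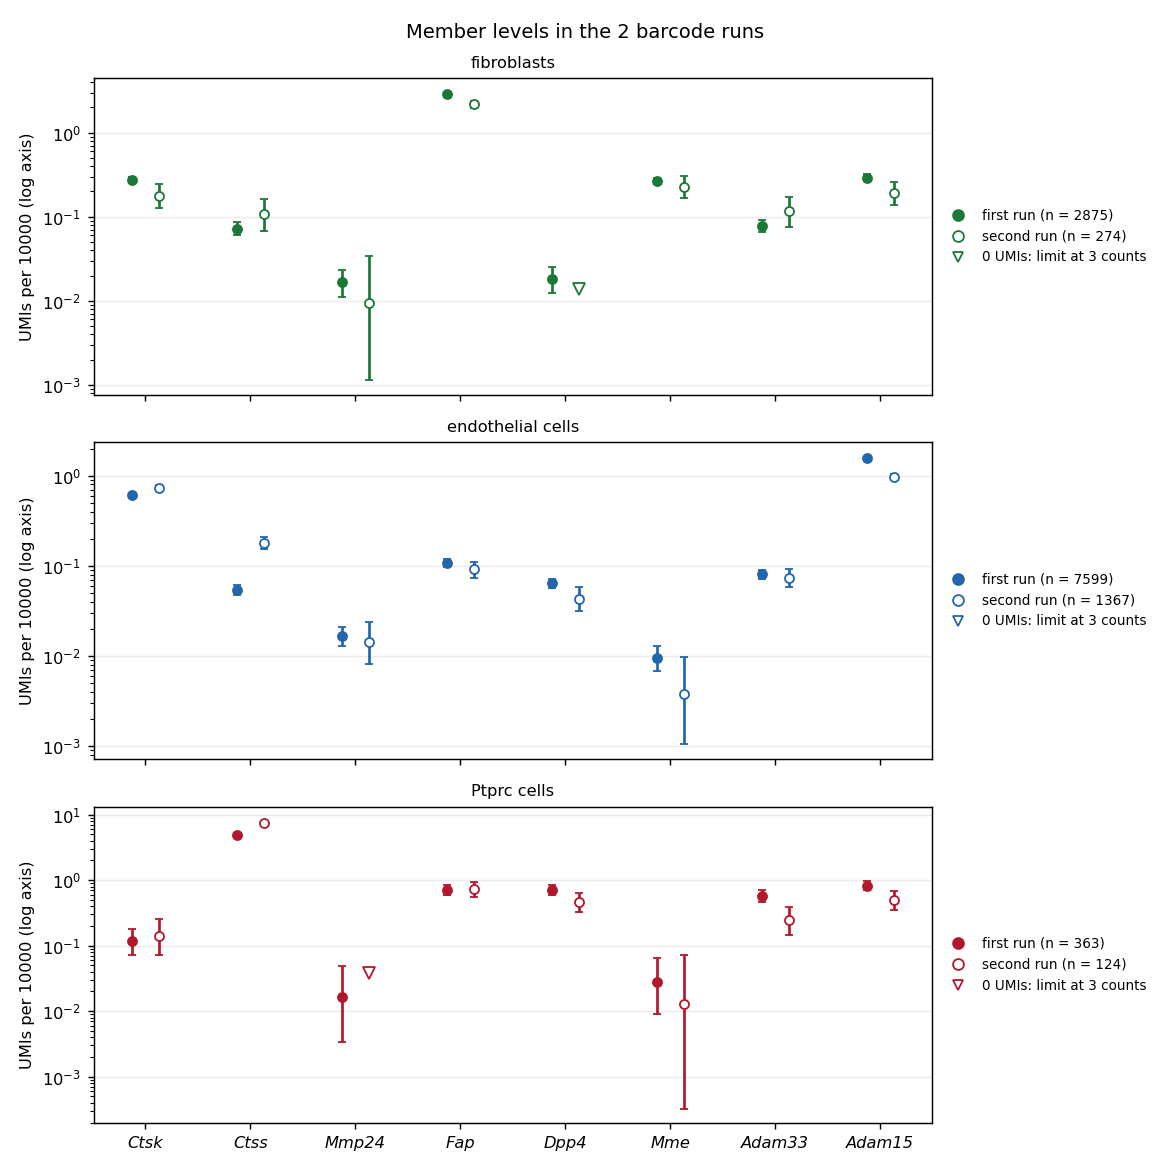
Levels (UMIs per 10000, log axis, 95% exact Poisson intervals) of the 8 members with a UMI in the first (filled) and second (open) run of barcodes, by group; triangles are the limit of 3 counts. Adam15 in endothelial cells is at 1.58 and 0.973, and Ctss in Ptprc cells at 4.88 and 7.38.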

How the data were processed

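Values were deposited on a natural log scale, ln(1 + UMIs per 10000), which the authors state they made with LogNormalize in Seurat after filters on genes per cell, mitochondrial share and cells per gene. Their batch correction with Harmony worked on principal components. Cell Ranger 7.1.0 and mm10 come from the submitters' processing notes. UMIs and totals were recovered as whole numbers within 0.02 for 100% of values above 0. Of 3265 genes, 1 with 11958 empty values was left out; 3244 were matched by symbol to GENCODE, all on chromosomes 1, 2 and 3. The comparisons had been planned for counts, and no count model was fitted. The members and lists were chosen with earlier results of these data known. No doublet caller was run; cells with fibroblast genes and Egfl7 form a group of their own, except 17 with Ptprc, which are Ptprc cells.

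Named genes are every member, the 2 other protease or inhibitor genes with the most UMIs in each role and any at least 5-fold over the next group, and the 3 genes most like each member of at least 200 UMIs. A fold call needed 20 UMIs and 2-fold, with a group at 0 set to 3 counts. Clusters used 2000 variable genes without the members, clipped at 10, 50 principal components, 15 neighbours, Leiden resolution 0.5 and seed 1. Python 3.11.15, numpy 2.4.6, pandas 2.3.3, scipy 1.17.1, scanpy 1.11.5, scikit-learn 1.9.0, igraph 0.11.9 and matplotlib 3.10.9 were used, and recovery and ratios were tested on simulated cells.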

Additional observations from a re-analysis of the deposited data

How the results depend on the processing

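No paired analysis was possible because the matrix is 1 pooled sample. Fap and Mme were highest in fibroblasts, Ctsk and Adam15 in endothelial cells, and Ctss, Dpp4 and Adam33 in Ptprc cells under all 9 alternatives: stricter marker gates, every cell with a UMI of Ptprc as a Ptprc cell, Leiden clusters, means over cells, cells of at least 2000 UMIs, without the 5% of cells with the most UMIs, each barcode run alone, and, chosen after seeing the data, Ptprc cells without those with fibroblast genes and Egfl7. Mmp24 changed groups. Members past the fold between fibroblasts with and without Scn7a numbered 1, not 2, at 3-fold, with stricter gates, with every Ptprc cell taken out and with means over cells; Adam33 passed in each. Ctss was also lost with Leiden clusters and without the 5% of cells with the most UMIs, where Dpp4 passed in its place, and in the second run, where Mme did. Past the fold among the endothelial subsets were 3, not 6, at 3-fold (Dpp4, Mme and Adam33), 4 with both genes of the pair (Ctsk, Fap, Adam33 and Adam15), 4 with subsets that may overlap (Ctsk, Dpp4, Mme and Adam33) and 4 in the second run (Ctsk, Ctss, Fap and Adam33). With stricter gates, Leiden clusters, cells of at least 2000 UMIs, without the 5% of cells with the most UMIs, in the first run and at 50 UMIs there were 5, without Mme. The share of all genes that passed was computed for the main setting only. These alternative counts, and those by Scn7a, therefore have no background beside them and describe the list. The 2-fold call on Adam15 in endothelial cells ended in each run alone, with means over cells and with every Ptprc cell. Ratios changed direction for Ctsk by Mrc1 (0.914, clusters), Ctss by Scn7a (0.996, every Ptprc cell taken out), Fap between endothelial subsets (0.411, second run) and Dpp4 between them (0.705, both genes of the pair). The 2-fold call on Ctsk by Mrc1 also ended with stricter gates, with every Ptprc cell and in the first run. The causes were not tested. Of 245 alternative level ratios, 200 lay within the main counting interval, 41 lay outside it, and 4, those above, crossed 1 where that interval did not include 1. The ratio of Ctss in Ptprc cells over endothelial cells, which were not the next group in every alternative, ranged from 40.9 to 294. Of 54 shares at other depths 41 moved, since shares rise with depth. Low counts limit Mmp24, Mmp9 and the endothelial levels of Mme.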
